A study of Drosophila melanogaster with 32 samples.

Results

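The genes described here lie around the Hsp70 loci of Drosophila melanogaster, on chromosome arm 3R between 11900000 and 12600000 of build dm6. They were chosen by position, as the genes whose annotated span lies inside these bounds, and by a minimum of 10 reads summed over all 32 libraries. Of 17559 counted genes, 129 lay in the region and 102 reached the minimum, of which 94 were protein coding and 8 were non-coding RNAs. The 27 genes under the minimum included 15 with 0 reads in every library. Nearest to the minimum, Cyp313a3 had 10 reads and CG3916 had 11, while CG44038 had 9 and lncRNA:CR46016 had 8.

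RNA with poly(A) tails was sequenced from heads of male flies, in biological replicates of about 100 flies. The labels call the 4 strains hsp70-, w+hsp70-, hsp70-1c and hsp70-4c, and state neither the alleles nor the Hsp70 copies that each carries. Naive flies gave 3 libraries each for hsp70- and w+hsp70- and 4 each for hsp70-1c and hsp70-4c. The time label of the 4 hsp70-4c libraries says naive while their titles add 5 h to the word control, and they were used as naive. Flies frozen 5 h after training gave 3 libraries for each strain, and flies frozen 24 h after training gave 3 for hsp70-1c and 3 for hsp70-4c. All groups came from males, and each strain's genetic background coincides with the strain, so a difference between strains cannot be told apart from one of background or rearing.

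Hsp70 is a chaperone that binds unfolded proteins, and in flies its inducible copies are transcribed massively after heat shock and little at normal temperature. The copies sit in a pair of clusters, 87A with Hsp70Aa and Hsp70Ab and 87C with Hsp70Ba, Hsp70Bbb, Hsp70Bb and Hsp70Bc. Just beyond 87C lie genes of neuromodulation, among them Octbeta3R and Octbeta2R, both receptors for octopamine, the insect counterpart of noradrenaline, and Hug, which encodes the hugin neuropeptides.

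In the annotation, 87A spans 11954163 to 11960909 and 87C spans 12465453 to 12511461, with 504543 bases between them. By position, 1 member lay before 87A, 1 within it, 95 between the clusters, 1 within 87C and 4 after it. Levels are given as CPM, counts per 1000000 reads assigned to genes after TMM scaling over all libraries. Assigned reads ranged from 4542145 to 10344890 per library. Of the defining markers of a fly head, all 6 of photoreceptors had reads in every library, as did 3 of 4 of neurons, and elav, the fourth, had 0 to 10 reads and was at 0 in 2 libraries. The 3 gut markers also had reads in every library, and their sum was 1960 to 9923 CPM over all libraries. That of the 4 neuron markers was 586 to 1141 CPM. The part of gut RNA in the members' levels was not tested. A mean of at least 10 CPM was found for 49 members and a mean under 1 CPM for 29.

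The Hsp70 genes themselves gave few reads. Hsp70Bc (12509076 to 12511461, plus strand), the last gene of 87C, had 342 reads in hsp70-4c, with 21 to 54 in each of its 10 libraries. In hsp70-1c it had 3 reads, all in 1 of 10 libraries, and in hsp70- and w+hsp70- it had 0 reads in 6 of 6 libraries each. Its level in hsp70-4c was 4.36, 5.40, 6.15 and 4.98 CPM in naive flies, 3.82, 4.79 and 4.38 CPM at 5 h and 4.36, 2.81 and 3.50 CPM at 24 h. Every hsp70-4c library was thus above every library of the other 3 strains. Against a floor of 3 counts over the strain, the level in hsp70-4c was at least 52.2-fold higher than in hsp70- and at least 56.2-fold higher than in w+hsp70-.

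Hsp70Aa, in 87A, had 1 read in w+hsp70-, 2 in hsp70-, 6 in hsp70-4c and 11 in hsp70-1c, which is too few to compare strains. Hsp70Ab, Hsp70Ba, Hsp70Bb and Hsp70Bbb had 0 reads in all 32 libraries. The copies are nearly identical, and how reads that fit several copies were treated is not given in the sources used here, so a count of 0 does not show that a copy was silent and levels cannot be assigned to one copy with certainty.

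Octbeta3R begins 108 bases beyond the end of Hsp70Bc and lies on the opposite strand (12511570 to 12548229), so that the genes meet tail to tail. It showed the widest difference between strains among the members. In hsp70-4c it had 1299 reads, with 107 to 149 in each of 10 libraries. In hsp70-1c it had 3 reads in 10 libraries, in w+hsp70- 1 read in 6 libraries and in hsp70- 0 reads in 6 libraries.

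The level of Octbeta3R in hsp70-4c was 17.0, 18.8, 16.9 and 19.5 CPM in naive flies, 15.3, 17.8 and 14.8 CPM at 5 h and 16.1, 16.6 and 17.4 CPM at 24 h. No other library exceeded 0.141 CPM, and the strains did not overlap. Relative to a floor of 3 counts over the strain, the level in hsp70-4c was at least 198-fold higher than in hsp70-. These differences of Hsp70Bc and Octbeta3R were known when the region was chosen, and they are given as a description with no test. A search for genes with 0 reads in all libraries of 1 strain and at least 50 reads in another found 8 of 17559 genes for hsp70-, of which Hsp70Bc and Octbeta3R were members, and 13 for w+hsp70-, of which Hsp70Bc was the single member.

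**Figure D1:**
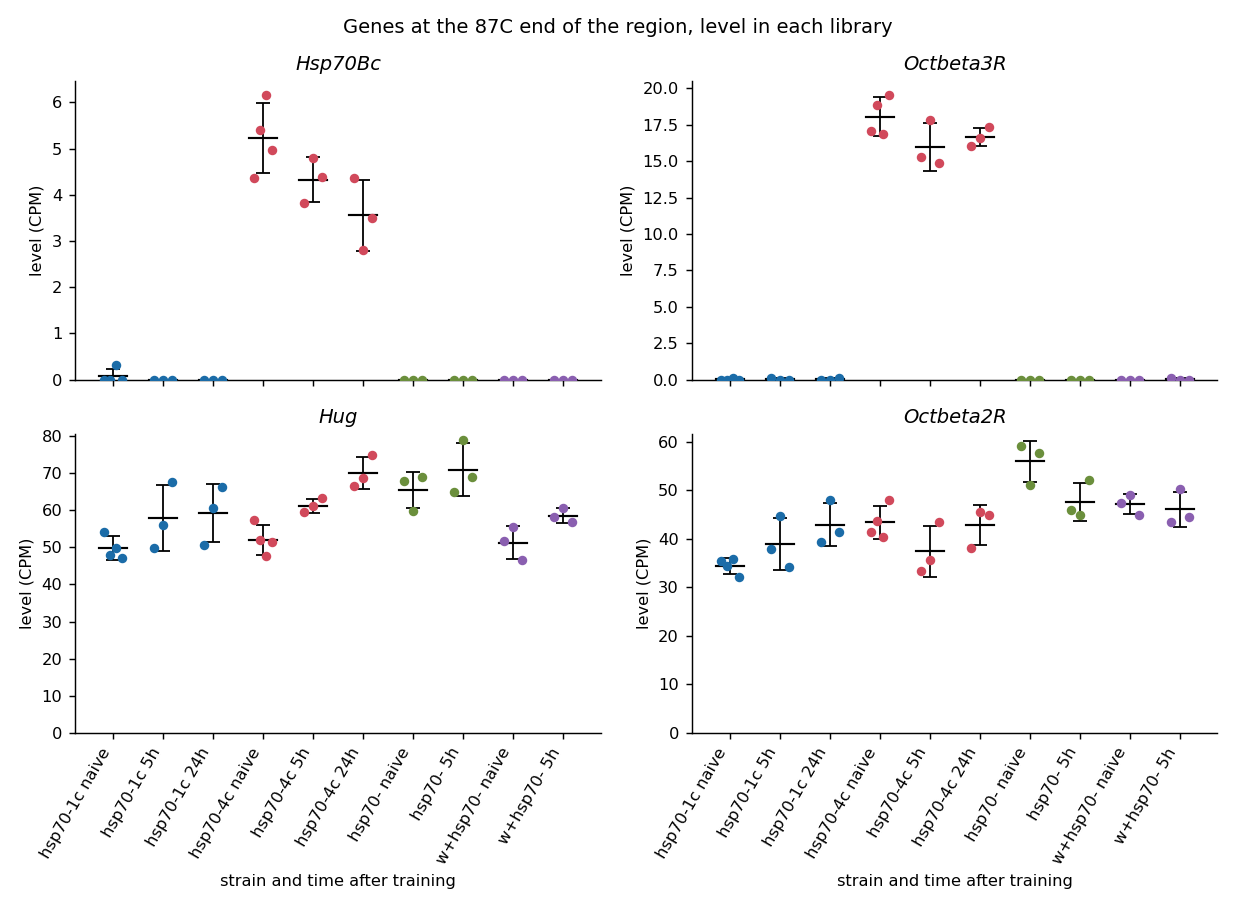
Level in CPM (vertical axes, from 0) of 4 genes at the 87C end of the region in each library, by strain and time after training (horizontal axis). Points are libraries, lines are means and bars are standard deviations. Hsp70Bc and Octbeta3R stand well above 0 in hsp70-4c alone, whereas Hug, which lies inside the span of Octbeta3R, and Octbeta2R are present in every library.

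Hug lies within the annotated span of Octbeta3R, on the plus strand (12526188 to 12529076), and was present in every library of every strain, between 46.6 and 79.0 CPM. Naive libraries had 54.3, 48.0, 49.8 and 47.2 CPM in hsp70-1c, 57.4, 51.9, 47.6 and 51.5 CPM in hsp70-4c, 67.9, 59.8 and 68.9 CPM in hsp70-, and 51.6, 55.5 and 46.6 CPM in w+hsp70-. The 3 hsp70- libraries were above all 11 others. Hug was higher in hsp70- than in hsp70-1c by 0.41 ± 0.09 on the log2 scale (± standard error, SE; edgeR quasi-likelihood test, Benjamini-Hochberg adjusted p = 0.0112) and higher than in hsp70-4c by 0.36 ± 0.09 (edgeR adjusted p = 0.0130). Without hsp70- naive replicate 3 the adjusted p of these contrasts was 0.0575 and 0.0544. At 5 h the same contrasts were 0.32 ± 0.11 (edgeR adjusted p = 0.110) and 0.23 ± 0.11 (edgeR adjusted p = 0.185).

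Octbeta2R, the next receptor gene (12550625 to 12595725, minus strand), had naive levels of 35.5, 34.4, 35.8 and 32.2 CPM in hsp70-1c and 41.4, 43.6, 40.4 and 48.1 CPM in hsp70-4c. It had 59.2, 51.2 and 57.7 CPM in naive hsp70- and 47.5, 49.0 and 44.9 CPM in naive w+hsp70-. The hsp70-1c libraries were below all others and the hsp70- libraries above all others, while hsp70-4c and w+hsp70- overlapped. Octbeta2R exceeded its hsp70-1c level by 0.72 ± 0.09 in hsp70- (edgeR adjusted p = 0.000101), by 0.45 ± 0.09 in w+hsp70- (edgeR adjusted p = 0.00792) and by 0.32 ± 0.08 in hsp70-4c (edgeR adjusted p = 0.0173), in log2 units ± SE. It was also higher in hsp70- than in hsp70-4c by 0.40 ± 0.09 (edgeR adjusted p = 0.00476).

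Both contrasts of Octbeta2R with hsp70- held without each library in turn. The contrast of w+hsp70- with hsp70-1c had an adjusted p of 0.0556 without w+hsp70- replicate 2. The contrast of hsp70-4c with hsp70-1c had 0.0534 without hsp70-1c replicate 4 and 0.0625 without hsp70-4c replicate 4. In flies 5 h after training Octbeta2R passed the threshold in no strain pair, with differences from hsp70-1c of 0.31 ± 0.13 in hsp70-, 0.26 ± 0.13 in w+hsp70- and -0.05 ± 0.13 in hsp70-4c. A list of 11 octopamine and tyramine genes held Octbeta2R and left out Octbeta3R. Of its genes, 2 were higher, Octbeta2R among them, and 0 lower in the naive contrast of hsp70-4c with hsp70-1c, against 10.1% of all genes called. The other was Vmat, the vesicular monoamine transporter (0.55 ± 0.12, edgeR adjusted p = 0.00668). Vmat was also lower than in naive hsp70-4c in hsp70- (-0.52 ± 0.14, edgeR adjusted p = 0.0136) and in w+hsp70- (-0.47 ± 0.14, edgeR adjusted p = 0.0325), and no other gene of the list was called in any strain pair.

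Of the members of at least 10 CPM nearest to the clusters on the other sides, Tango9 beside 87A was called and the others were not. On the low side of 87A, CG31211 ends 124 bases from the cluster, and on the high side CG12213, GC1 and Tango9 follow. On the low side of 87C, CG5608 ends 154 bases from Hsp70Ba, and CG5961 and trus lie next to it. GC1, which encodes a mitochondrial glutamate carrier, ranged from 66.0 to 79.0 CPM over all 32 libraries, and its log2 differences between naive strains lay between -0.08 and 0.02. CG12213, CG5608, CG5961 and trus differed by at most 0.24 in any naive pair, and none of these genes passed the threshold in any of the 19 comparisons.

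CG31211 varied widely within groups, from 30.1 to 114 CPM over the 32 libraries, and was called in no comparison. CG3281, whose annotated exons overlap the end of Hsp70Ab on the other strand, ranged from 7.44 to 13.7 CPM and differed by at most 0.08 between naive strains. Tango9 was the one gene of these beside 87A that was called. Its naive levels were 103, 100.3, 106 and 116 CPM in hsp70-4c, 132, 127, 119 and 119 CPM in hsp70-1c, 147, 130.1 and 133 CPM in hsp70-, and 135, 132 and 128 CPM in w+hsp70-. All hsp70-4c libraries were below the rest.

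Tango9 was higher in naive hsp70- than in naive hsp70-4c by 0.40 ± 0.08 (log2 ± SE, edgeR adjusted p = 0.00285), which held without each library, and in w+hsp70- by 0.33 ± 0.08 (edgeR adjusted p = 0.0151), which reached 0.0685 without w+hsp70- replicate 1 and 0.0594 without replicate 2. At 5 h both differences of Tango9 were close to 0, at 0.04 and 0.03. Its exons overlap those of GC1 and GC2 on the other strand, and although the libraries were strand-specific, the strand setting of the counting is not given in the sources used here. Reads of overlapping genes on opposite strands can therefore not be told apart.

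Across the naive strains, 73 members passed the filter on low counts and 29 did not, the latter with means of at most 0.915 CPM. Hsp70Bc and Octbeta3R passed it through hsp70-4c and had to differ, so the counts below leave them out and cover the other 71 members, a choice made after the values were seen. The share of all tested genes called in the same contrast is given beside each count. The 6 contrasts share libraries and are not independent.

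Between hsp70-4c and hsp70-1c, 8 of 71 members (11.3%) were called, 4 higher and 4 lower, against 10.1% of all genes (4.22% higher and 5.9% lower). Between hsp70- and hsp70-1c, 8 of 71 were called, 3 higher and 5 lower, against 7.53% of all genes (1.85% higher and 5.68% lower). Between w+hsp70- and hsp70-1c, 5 of 71 (7.04%) were called, 2 higher and 3 lower, against 3.15% of all genes (0.478% higher and 2.68% lower). Between hsp70- and hsp70-4c, 14 of 71 (19.7%) were called, 5 higher and 9 lower, against 15.9% of all genes (6.9% higher and 9.01% lower). Between w+hsp70- and hsp70-4c, 7 of 71 (9.86%) were called, 2 higher and 5 lower, against 9.91% of all genes (4.56% higher and 5.35% lower).

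Between w+hsp70- and hsp70-, only CG14742 was called of 71 members (1.41%), and it was higher, against 0.287% of all genes (0.21% higher and 0.0765% lower). These shares lay within a few points of the background in every contrast, and above it in all but that of w+hsp70- with hsp70-4c. Some gaps were wide beside a small background, as with 7.04% against 3.15% between w+hsp70- and hsp70-1c, and were not tested. The members' median absolute log2 difference was near that of all genes, for example 0.12 against 0.13 between hsp70-4c and hsp70-1c and 0.20 against 0.17 between hsp70- and hsp70-1c. With so few called members, these counts are not read as setting the region apart. In all, 20 of the 71 (28.2%) were called in at least 1 naive pair, against 22.7% of all genes. A split at 20 kb from a cluster, chosen after the values were seen, gave 1, 3, 2, 4, 3 and 0 of 17 near members called in the 6 contrasts in the order above, and 7, 5, 3, 10, 4 and 1 of 54 farther members. The difference between near and farther members was not tested.

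**Figure D2:**
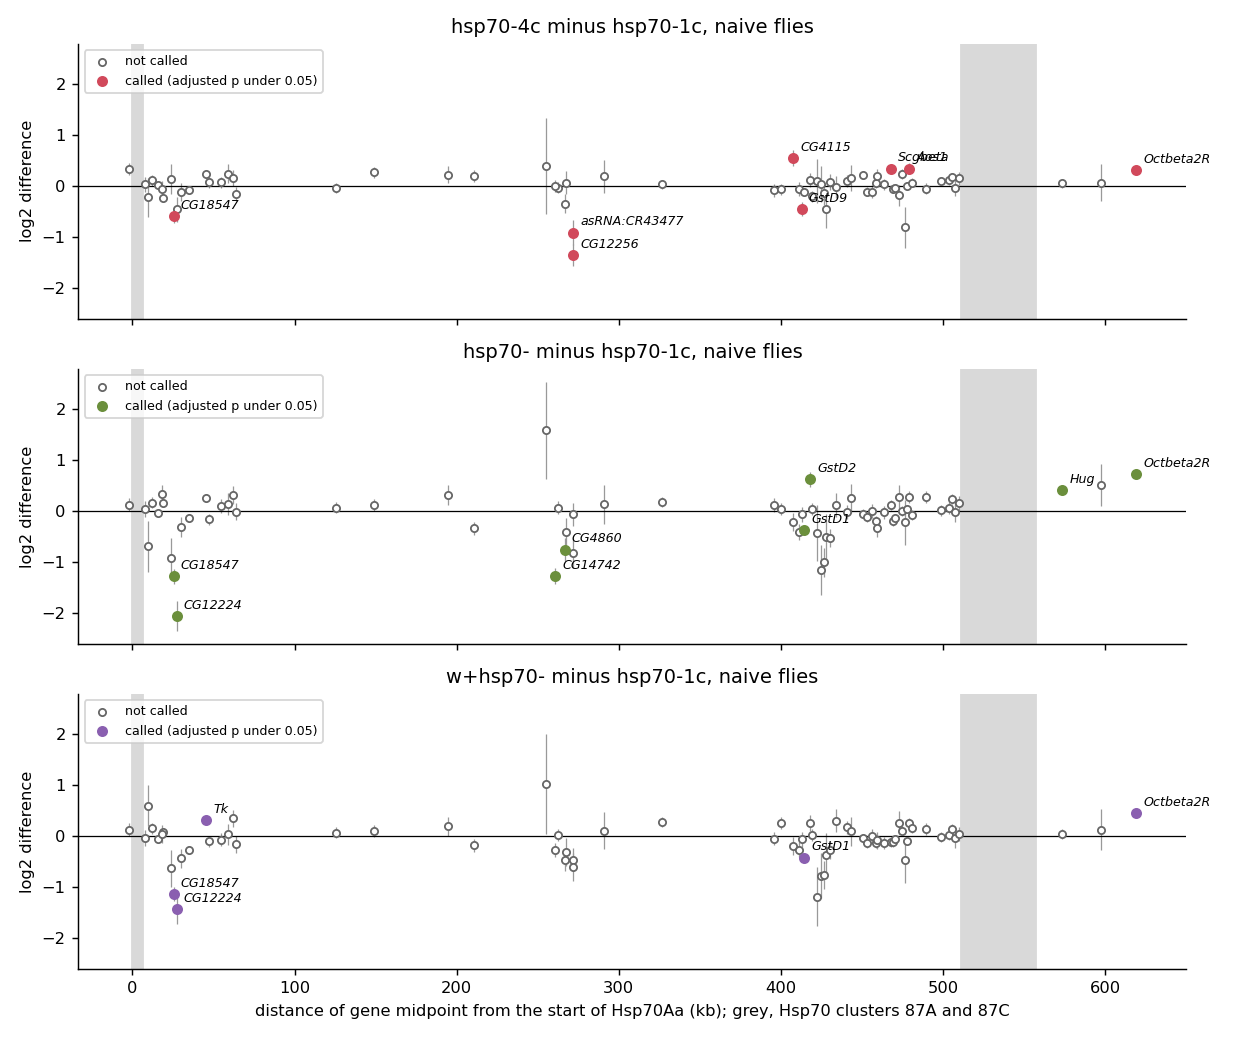
Log2 difference in naive flies from hsp70-1c (vertical axes) for each tested member against the distance of its midpoint from the start of Hsp70Aa in kb (horizontal axis), for hsp70-4c, hsp70- and w+hsp70-. Filled points are called, open points are not, bars are standard errors and grey bands are the Hsp70 clusters. Hsp70Bc and Octbeta3R are left out, and most other members sit near 0 along the whole region, with called genes both between the clusters and after 87C.

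Inside the interval, the adjacent genes CG18547 (11978574 to 11980390) and CG12224 (11980704 to 11982062), both on the minus strand and starting within 20 kb of 87A, were called in 5 and 4 of the 6 naive pairs. CG18547 had 136, 141, 115 and 157 CPM in hsp70-1c, 80.5, 78.2, 98.1 and 112 CPM in hsp70-4c, 59.4, 55.5 and 52.7 CPM in hsp70- and 73.4, 51.9 and 61.5 CPM in w+hsp70-. The hsp70-1c libraries were the highest, hsp70-4c was intermediate, and hsp70- and w+hsp70- overlapped below both. Relative to hsp70-1c, CG18547 was lower by -1.28 ± 0.15 in hsp70- (edgeR adjusted p = 5.23e-05), by -1.14 ± 0.14 in w+hsp70- (edgeR adjusted p = 0.000210) and by -0.59 ± 0.13 in hsp70-4c (edgeR adjusted p = 0.00534), log2 ± SE, and each held without each library. In 1 fit over all 32 libraries the last of these had an adjusted p of 0.0514. Relative to hsp70-4c CG18547 was lower by -0.69 ± 0.14 in hsp70- (edgeR adjusted p = 0.00318) and by -0.55 ± 0.14 in w+hsp70- (edgeR adjusted p = 0.0195), the latter with an adjusted p of 0.0507 to 0.118 without hsp70-4c replicate 3 or 4 or w+hsp70- replicate 2 or 3.

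CG12224 had 58.0, 92.3, 51.6 and 76.0 CPM in naive hsp70-1c, 42.7, 39.4, 56.2 and 64.6 CPM in hsp70-4c, 16.2, 17.3 and 15.8 CPM in hsp70- and 36.8, 18.4 and 20.8 CPM in w+hsp70-. The first pair of strains overlapped with each other and lay above the other pair. CG12224 was lower in hsp70- than in hsp70-1c by -2.06 ± 0.30 (edgeR adjusted p = 0.00163) and than in hsp70-4c by -1.60 ± 0.30 (edgeR adjusted p = 0.00351), and both held without each library. In w+hsp70- the difference from hsp70-1c was -1.44 ± 0.28 (edgeR adjusted p = 0.0170), which reached 0.0521 without hsp70-1c replicate 4, 0.0796 without w+hsp70- replicate 2 and 0.107 without w+hsp70- replicate 3. That from hsp70-4c was -0.98 ± 0.28 (edgeR adjusted p = 0.0475), which passed 0.05 no longer without 5 of the 7 libraries, hsp70-4c replicates 1, 3 and 4 and w+hsp70- replicates 2 and 3, at 0.0517 to 0.174.

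Of 4 listed markers of head fat body, which stores nutrients and detoxifies, 3 were found and FASN1 was not. The summed level of the 3 is given by strain without a test. Over all libraries of a strain the sum was 2091 to 5519 CPM in hsp70-1c, 2020 to 3392 CPM in hsp70-4c, 1166 to 1809 CPM in hsp70- and 1455 to 2035 CPM in w+hsp70-. The range of hsp70- lay below those of hsp70-1c and hsp70-4c, while that of w+hsp70- overlapped that of hsp70-4c. None of the 3 genes (fit, Lsp2 and apolpp) was at 0 in any library. The sum's part in the levels of CG18547, CG12224 and GstD1 was not tested. In whole heads, fewer cells of a type and less RNA per cell cannot be told apart.

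CG14742 (12214501 to 12215659, plus strand) was called in 9 of the 19 comparisons, more than any other member. In naive flies it had 29.6, 29.9, 29.5 and 28.2 CPM in hsp70-1c, 29.2, 30.6, 32.018 and 26.6 CPM in hsp70-4c, 13.9, 14.2 and 7.70 CPM in hsp70- and 23.4, 21.8 and 27.5 CPM in w+hsp70-. The hsp70- libraries were below all others. CG14742 was lower in hsp70- than in hsp70-1c by -1.28 ± 0.15 (edgeR adjusted p = 6.77e-05), lower than in hsp70-4c by -1.28 ± 0.15 (edgeR adjusted p = 1.42e-05), and higher in w+hsp70- than in hsp70- by 1.01 ± 0.16 (edgeR adjusted p = 0.00936), and all of these held without each library.

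At 5 h, in separate libraries, CG14742 had 14.6, 9.96 and 12.7 CPM in hsp70- against 18.3 to 20.9 CPM in the 9 libraries of the other strains. It was lower in hsp70- than in hsp70-1c by -0.58 ± 0.13 (edgeR adjusted p = 0.0189) and than in hsp70-4c by -0.57 ± 0.13 (edgeR adjusted p = 0.00655), and higher in w+hsp70- than in hsp70- by 0.71 ± 0.13 (edgeR adjusted p = 0.0304). The first of these reached 0.0615 without hsp70-1c replicate 2 and 0.0638 without hsp70- replicate 2, and the last 0.0581 to 0.154 without 5 of 6 libraries, all but hsp70- replicate 1. The exons of CG14742 overlap Cog1, a subunit of a Golgi complex on the other strand, which was called in neither naive contrast with hsp70-1c (-0.04 ± 0.11 in hsp70-4c and 0.07 ± 0.12 in hsp70-).

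**Figure D3:**
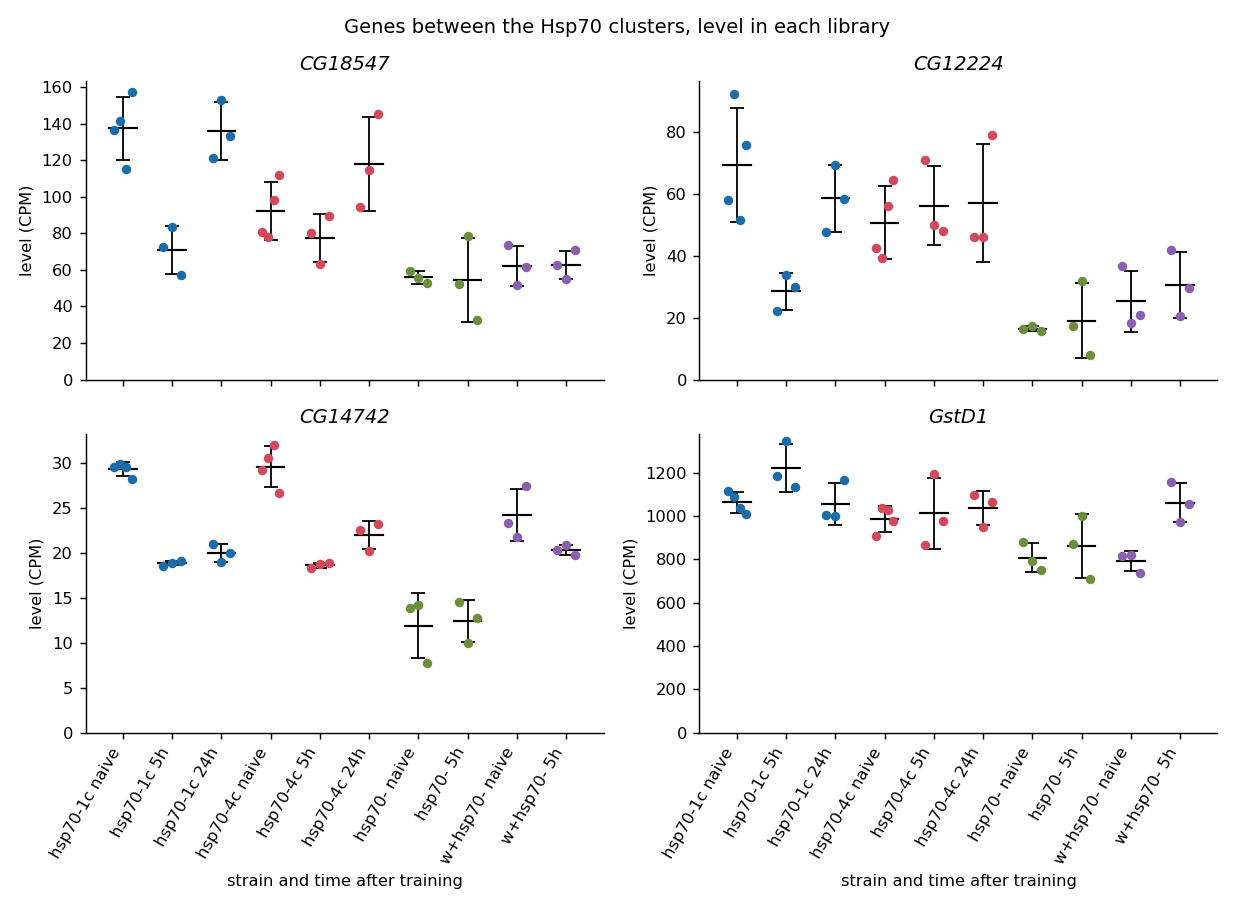
Level in CPM (vertical axes, from 0) of 4 genes between the Hsp70 clusters in each library, by strain and time after training (horizontal axis). Points are libraries, lines are means and bars are standard deviations. Naive hsp70- libraries are lowest for CG12224 and CG14742, and the naive libraries of CG18547 are highest in hsp70-1c.

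CG12256 (12225282 to 12226339) was lower in naive hsp70-4c, and the antisense RNA asRNA:CR43477 over it was called lower there against hsp70-1c but against neither other strain. CG12256 had 1.54, 2.11, 1.71 and 3.02 CPM in hsp70-4c against 5.23, 5.34, 5.87 and 4.71 CPM in hsp70-1c, 5.94, 4.52 and 4.58 CPM in hsp70- and 4.17, 4.32 and 3.01 CPM in w+hsp70-. The lowest w+hsp70- library was level with the highest of hsp70-4c, and the other strains lay above. In hsp70-4c CG12256 was lower than in hsp70-1c by -1.36 ± 0.21 (edgeR adjusted p = 0.000248) and higher in hsp70- than in hsp70-4c by 1.29 ± 0.24 (edgeR adjusted p = 0.00121), and both held without each library. At 5 h the contrasts were -0.65 ± 0.30 and -0.37 ± 0.32, the latter of opposite sign, and neither passed the threshold.

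The antisense RNA asRNA:CR43477 differed between hsp70-4c and hsp70-1c by -0.92 ± 0.25 (edgeR adjusted p = 0.0225), and 0.0502 to 0.0707 without hsp70-1c replicate 1 or 2 or hsp70-4c replicate 1 or 2. CG4115 had 16.7, 19.6, 17.1 and 12.2 CPM in naive hsp70-4c against 9.34 to 12.8 CPM in hsp70-1c, and 8.04 to 11.6 CPM in the 6 naive libraries of hsp70- and w+hsp70-. It was lower in hsp70- than in hsp70-4c by -0.77 ± 0.18 (edgeR adjusted p = 0.00581), which held without each library, and in w+hsp70- by -0.74 ± 0.17 (edgeR adjusted p = 0.00800), which reached 0.0654 without w+hsp70- replicate 3. The libraries of hsp70-4c and hsp70-1c overlapped, and that difference (0.55 ± 0.15, edgeR adjusted p = 0.0240) was at 0.0535 to 0.0860 without 5 of the 8 libraries, hsp70-1c replicates 1 and 2 and hsp70-4c replicates 1, 2 and 3.

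Scgbeta, which encodes a sarcoglycan of the dystrophin-associated complex, had 59.2, 56.8, 49.2 and 51.8 CPM in naive hsp70-4c, 41.9, 41.4, 45.8 and 40.8 CPM in hsp70-1c and 40.3, 41.6 and 35.8 CPM in w+hsp70-. The hsp70-4c libraries did not overlap those of either strain. Scgbeta was lower in w+hsp70- than in hsp70-4c by -0.45 ± 0.10 (edgeR adjusted p = 0.00494), which held without each library but not in 1 fit over all 32 libraries (adjusted p = 0.0989). It was higher in hsp70-4c than in hsp70-1c by 0.34 ± 0.09 (edgeR adjusted p = 0.0169), which reached 0.0523 without hsp70-1c replicate 1, 0.0544 without hsp70-4c replicate 1 and 0.184 in the fit over all libraries.

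The GstD genes form the densest family in the region, 11 neighbouring genes from 12364776 to 12385624 that encode glutathione S-transferases, enzymes of detoxification. GstD1 was the most abundant member of all per length, at 1176 CPM per kb of exon, and GstD9 was next in the family at 163. GstD4 and GstD6 were lowest, at 0.814 and 0.720 CPM per kb. GstD3, GstD4, GstD5, GstD6 and GstD7 were called in no comparison, or did not pass the filter. GstD11 in naive flies (log2 -0.61 ± 0.18, SE) and GstD8 at 5 h were called lower in hsp70- than in hsp70-4c. GstD10 at 5 h was called higher in hsp70- and in w+hsp70- than in hsp70-4c. Each of these calls was lost in 4 or 5 alternative fits. Near-identical stretches between these genes could split reads, so levels of single genes are uncertain.

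**Figure D4:**
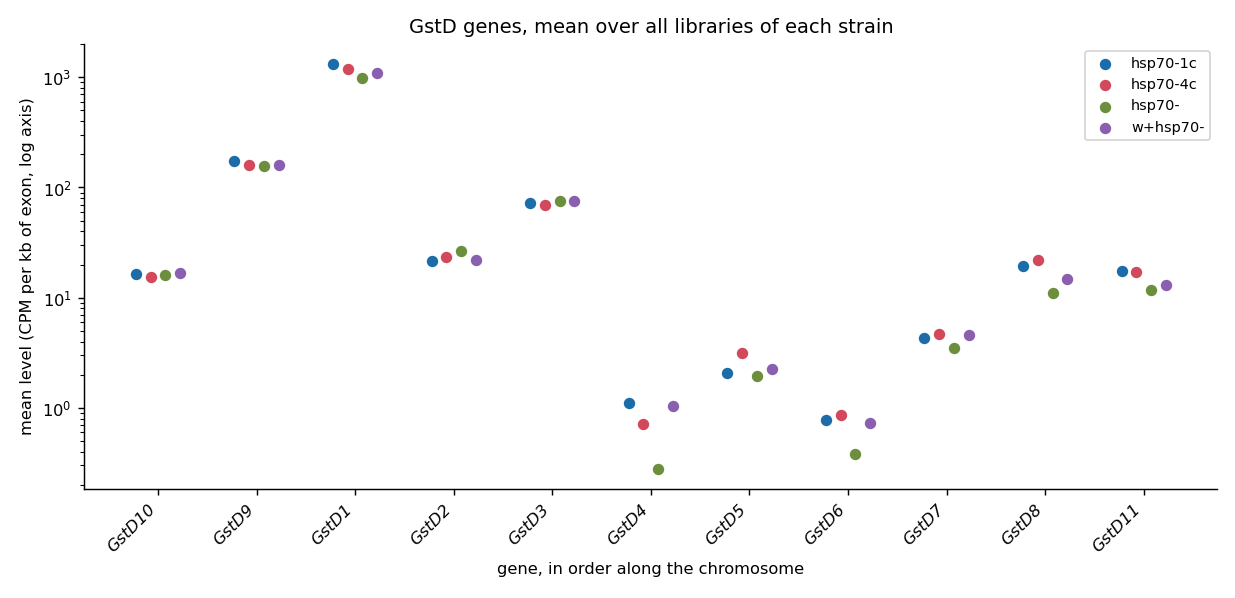
Mean level over all libraries of a strain in CPM per kb of exon (vertical axis, logarithmic) for the 11 GstD genes in their order along the chromosome (horizontal axis). Colours are strains. GstD1 is highest and GstD4 and GstD6 lowest in every strain, and the strains differ little beside the differences between genes.

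GstD1 had 1117, 1089, 1036 and 1009 CPM in naive hsp70-1c, 906, 1035, 1029.8 and 978 CPM in hsp70-4c, 881, 792 and 749 CPM in hsp70- and 813, 821 and 737 CPM in w+hsp70-. All 6 libraries of hsp70- and w+hsp70- were below all 8 of the other strains, although with the scaling of the naive libraries alone those of hsp70- and hsp70-4c overlapped. Relative to hsp70-1c, GstD1 was lower by -0.38 ± 0.08 in hsp70- (edgeR adjusted p = 0.00938) and by -0.42 ± 0.08 in w+hsp70- (edgeR adjusted p = 0.00830), log2 ± SE. The first reached 0.0578 without hsp70- replicate 3 and the second 0.0882 without w+hsp70- replicate 3.

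Against hsp70-4c, GstD1 was lower in hsp70- by -0.26 ± 0.08 (edgeR adjusted p = 0.0418) and in w+hsp70- by -0.30 ± 0.08 (edgeR adjusted p = 0.0262), and the adjusted p exceeded 0.05 without 5 and 4 of the 7 libraries. GstD2 moved the other way, with 22.4, 19.7 and 17.5 CPM in naive hsp70- against 11.9 to 14.8 CPM in hsp70-1c, a log2 difference of 0.62 ± 0.15 (edgeR adjusted p = 0.0163, and 0.0548 without hsp70- replicate 1). GstD9 had 72.3, 104, 100.3 and 130.2 CPM in naive hsp70-4c against 133 to 144 CPM in hsp70-1c, a difference of -0.46 ± 0.14 (edgeR adjusted p = 0.0444) that was at 0.0693 to 0.110 without 7 of the 8 libraries, all but hsp70-4c replicate 4.

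Several further calls in naive flies lay close to the threshold. Tk, which encodes tachykinin neuropeptides, was higher in w+hsp70- than in hsp70-1c by 0.31 ± 0.08 (edgeR adjusted p = 0.0485), with libraries at 68.8 to 80.1 CPM against 56.9 to 66.4 CPM, and was at 0.0723 to 0.27 without all but hsp70-1c replicate 2. Aos1, a subunit of the SUMO-activating enzyme, was higher in hsp70-4c than in hsp70-1c by 0.34 ± 0.10 (edgeR adjusted p = 0.0435), at 0.0659 to 0.113 without 6 of the 8 libraries. CG4860 was lower in hsp70- than in hsp70-1c by -0.76 ± 0.23 (edgeR adjusted p = 0.0484), at 0.0518 to 0.171 without 6 of the 7 libraries. Cyp9f2, a cytochrome P450, and a small RNA gene within exons of Dip-C were lower in hsp70- than in hsp70-4c by -0.26 ± 0.08 and -0.52 ± 0.17 (edgeR adjusted p = 0.0408 and 0.0417), and each lost the call without 5 of 7 libraries.

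Cpn encodes calphotin, a calcium-binding protein of photoreceptors. Naive libraries had 438, 367, 349 and 353 CPM in hsp70-4c and 226, 327 and 212 CPM in hsp70-, and these did not overlap. It was lower in hsp70- than in hsp70-4c by -0.53 ± 0.13 in naive flies (edgeR adjusted p = 0.00841, and 0.0552 without hsp70- replicate 3) and by -0.33 ± 0.09 at 5 h (edgeR adjusted p = 0.0205, and 0.0829 and 0.0722 without hsp70-4c replicate 2 or hsp70- replicate 1). The sum of 6 photoreceptor markers was 20160 to 28880 CPM in hsp70-4c and 27480 to 36000 CPM in hsp70- over all times, and these ranges overlapped. Most of its reads came from ninaE (113480 to 341201 per library), so the sum mainly shows that gene. None of the 6 was at 0 in any library. The sum's part in the level of Cpn was not tested.

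Strains were compared again at 5 h after training, where 74 members passed the filter, 72 without Hsp70Bc and Octbeta3R. Called members, with the share of all genes called, were 1 between hsp70-4c and hsp70-1c (5.61%), 2 between hsp70- and hsp70-1c (4.37%), 1 between w+hsp70- and hsp70-1c (0.466%), 8 between hsp70- and hsp70-4c (14.8%), 2 between w+hsp70- and hsp70-4c (9.3%) and 1 between w+hsp70- and hsp70- (0.266%). At 24 h, 0 of 69 were called between hsp70-4c and hsp70-1c by edgeR (4.2% of all genes). DESeq2 also called no member there besides Hsp70Bc and Octbeta3R, which had to differ and are not counted. Of the 69, Ect3 and GstD2 had an unadjusted edgeR p under 0.05 at 24 h.

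Of the members called in a naive pair, those called in the same direction at 5 h were 0 of 8 between hsp70-4c and hsp70-1c, 1 of 8 between hsp70- and hsp70-1c (CG14742), 0 of 5 between w+hsp70- and hsp70-1c, 3 of 14 between hsp70- and hsp70-4c (CG12224, Cpn and CG14742), 0 of 7 between w+hsp70- and hsp70-4c and 1 of 1 between w+hsp70- and hsp70- (CG14742). Among all genes called in the same naive pairs and tested at 5 h, the shares called again were 38.9%, 23.1%, 6.97%, 42.7%, 48.2% and 36.7%. The sign at 5 h matched that in naive flies for 4 of 8, 7 of 8, 4 of 5, 13 of 14, 5 of 7 and 1 of 1 members, against 90.9%, 90.5%, 93.9%, 90.8%, 93.4% and 93.3% of all genes. The 5 h call of CG12224 (-1.53 ± 0.44, edgeR adjusted p = 0.0493) was lost without 5 of the 6 libraries, all but hsp70- replicate 2, at 0.0762 to 0.141. This comparison was chosen after the values were seen, and the difference between times was not tested.

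Further members were called at 5 h. Tk had 100.0, 87.5 and 84.6 CPM in hsp70-4c against 63.3, 67.5 and 69.3 CPM in hsp70-1c, a difference of 0.45 ± 0.09 (edgeR adjusted p = 0.00478) that held without each library. Ect3, a beta-galactosidase, had 79.7, 87.2 and 80.1 CPM in hsp70- against 114, 118 and 114 CPM in hsp70-4c, a difference of -0.48 ± 0.09 (edgeR adjusted p = 0.00230) that also held without each library. CG4830 had 11.1, 9.57 and 3.82 CPM in hsp70- against 0.808, 1.24 and 1.06 CPM in hsp70-1c, a difference of 2.98 ± 0.50 (edgeR adjusted p = 0.00737) that held without each library.

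In naive flies CG4830 was erratic within strains, at 0.309 to 4.74 CPM in hsp70-1c and 0 to 6.20 CPM in w+hsp70-. Its 5 h contrasts of w+hsp70- with hsp70-1c (2.86 ± 0.51, edgeR adjusted p = 0.0313) and with hsp70-4c (1.69 ± 0.46, edgeR adjusted p = 0.0382) lost the call without 5 of 6 libraries each, all but w+hsp70- replicate 1.

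Within strains, 11 of 72 members (15.3%) were called in at least 1 of the 6 comparisons of trained with naive flies, against 8.67% of all genes. In hsp70-1c at 5 h, 4 of 71 members were called, 1 higher and 3 lower, against 3.51% of all genes (1.41% higher and 2.1% lower). In hsp70-4c at 5 h, 5 of 71 were called, 2 higher and 3 lower, against 5.48% of all genes (3.04% higher and 2.44% lower). In w+hsp70- 1 of 68 was called, against 1.93%. In hsp70- 0 of 65 were called by edgeR (0.0305% of all genes) and 0 by DESeq2, with 2 members at an unadjusted p under 0.05.

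CG14742 fell in hsp70-1c and hsp70-4c after training. At 5 h it was called in neither w+hsp70- (-0.26 ± 0.12, edgeR adjusted p = 0.455) nor hsp70- (0.06 ± 0.24, edgeR adjusted p = 0.978). The difference between strains in this response was not tested. CG14742 went from 28.2 to 29.9 CPM in naive hsp70-1c to 18.6, 18.9 and 19.1 CPM at 5 h, a change of -0.65 ± 0.08 (edgeR adjusted p = 0.00130). In hsp70-4c it went from 26.6 to 32.018 CPM to 18.3, 18.7 and 18.9 CPM, a change of -0.67 ± 0.09 (edgeR adjusted p = 0.00244). Neither pair of groups overlapped, and both calls held without each library. In hsp70-4c at 24 h CG14742 had 22.5, 20.2 and 23.2 CPM, a change of -0.44 ± 0.09 (edgeR adjusted p = 0.0472) that was at 0.0865 to 0.237 without 5 of the 7 libraries, 24 h replicates 2 and 3 and naive replicates 1, 2 and 3. In hsp70-1c at 24 h the change was -0.55 ± 0.08 (edgeR adjusted p = 0.0934). It was not called, although the 24 h and naive libraries did not overlap.

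CG18547 and CG12224, the adjacent pair beyond 87A, both fell in hsp70-1c at 5 h. CG18547 had 72.6, 83.3 and 57.0 CPM at 5 h, all below its naive libraries, a change of -0.96 ± 0.14 (edgeR adjusted p = 0.00304) that held without each library. CG12224 had 22.1, 33.8 and 30.0 CPM, also below all naive libraries, a change of -1.28 ± 0.24 (edgeR adjusted p = 0.0210), and 0.0653 to 0.0834 without 5 h replicate 1 or 3 or naive replicate 4. At 24 h both were at 121, 153 and 133 CPM and at 47.8, 69.4 and 58.6 CPM, within or near their naive ranges. GstD2 was higher at 5 h in hsp70-1c by 0.68 ± 0.16 (edgeR adjusted p = 0.0369), at 0.0992 to 0.20 without 5 of the 7 libraries.

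**Figure D5:**
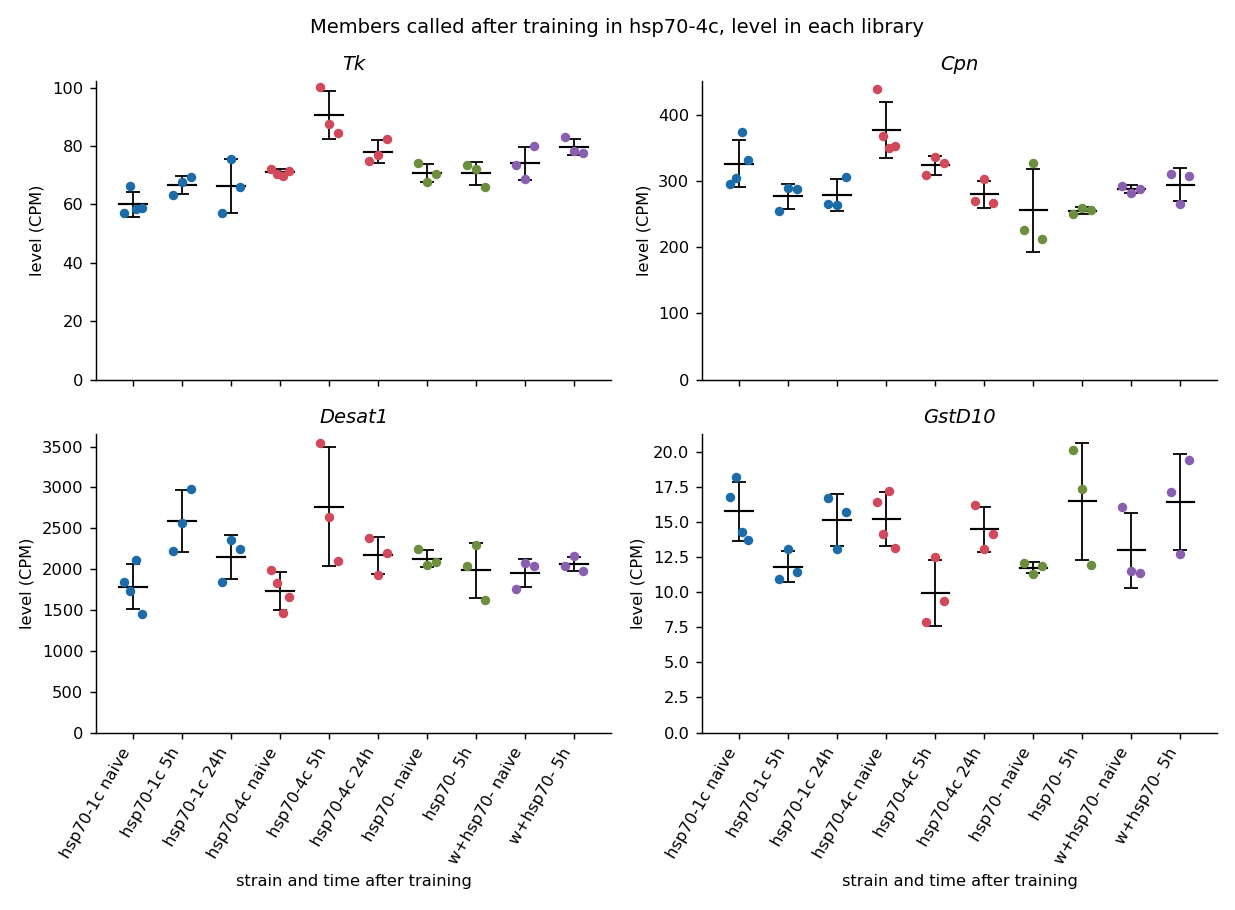
Level in CPM (vertical axes, from 0) of 4 members called between trained and naive hsp70-4c, in each library, by strain and time after training (horizontal axis). Points are libraries, lines are means and bars are standard deviations. Tk and Desat1 are higher and GstD10 lower at 5 h in hsp70-4c, and Cpn is lower at 24 h.

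In hsp70-4c at 5 h, Tk was higher than in naive flies (69.8 to 72.0 CPM) by 0.35 ± 0.08 (edgeR adjusted p = 0.0234). Desat1, a fatty acid desaturase of lipid and pheromone synthesis, had 3549, 2637 and 2105 CPM against 1457 to 1995 CPM, a change of 0.67 ± 0.16 (edgeR adjusted p = 0.0397). GstD10 had 7.90, 12.5 and 9.37 CPM against 13.1 to 17.2 CPM, a change of -0.63 ± 0.16 (edgeR adjusted p = 0.0397), and dpr17, an immunoglobulin-domain gene, changed by -0.41 ± 0.10 (edgeR adjusted p = 0.0264). None of these groups overlapped. Tk, Desat1, GstD10 and dpr17 each lost the call without 5 or more of the 7 libraries. In hsp70-1c at 5 h, Desat1 changed by 0.53 ± 0.13 and GstD10 by -0.42 ± 0.13 (edgeR adjusted p = 0.0625 and 0.109). Tk changed there by 0.14 ± 0.10 and dpr17 by -0.12 ± 0.12. None of these was called in hsp70-1c, and the difference between the strains was not tested.

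GstD1 was higher at 5 h than in naive flies in w+hsp70-, with 1155, 973 and 1057 CPM against 737 to 821 CPM, a change of 0.42 ± 0.08 (edgeR adjusted p = 0.0165) that was at 0.0544 to 0.101 without any naive library or 5 h replicate 1. At 24 h, 0 of 71 members were called in hsp70-1c by edgeR (0% of all genes) or DESeq2, with 9 at an unadjusted p under 0.05. In hsp70-4c 3 of 71 were called at 24 h, 1 higher and 2 lower, against 0.923% of all genes (0.5% higher and 0.423% lower). Hug rose by 0.42 ± 0.08 (66.7, 68.7 and 75.0 CPM, edgeR adjusted p = 0.0443), Cpn fell by 0.44 ± 0.09 on the log2 scale (269.6, 303 and 266 CPM, edgeR adjusted p = 0.0494), and the third was CG14742. Hug and Cpn lost the call without 6 and 7 of the 7 libraries.

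Of the 102 members, 74 were tested in at least 1 of the 19 comparisons. Without Hsp70Bc and Octbeta3R, 26 of 72 (36.1%) were called at least once, against 33.2% of all tested genes. Of 16 tested heat shock genes outside the region (of 19 listed), 2 were called between naive hsp70-4c and hsp70-1c, both lower, against 10.1% of all genes. They were Hsc70-2, a constitutive Hsp70 relative (-3.93 ± 0.19, edgeR adjusted p = 5.81e-11), and Hsp68, an inducible one (-0.99 ± 0.17, edgeR adjusted p = 0.000678). In naive flies 1 was higher and 1 lower in hsp70- against hsp70-4c (15.9% of all genes), and 2 were higher in w+hsp70- against hsp70-4c (9.91% of all genes).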

How the data were processed

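Per the submitters' processing notes, the authors used Trimmomatic, STAR 2.5.0a, featureCounts 1.5.0-p1 and build dm6. The deposited values are whole-number read counts per gene in 1 file per library. Single-end 75-bp reads came from a strand-specific kit, per the labels' protocols. Strand and multi-mapping settings and the annotation release are not given in the sources used here. Assigned reads numbered 4542145 to 10344890 per library, while 58.1% to 68.7% of reads were left unassigned as matching no counted feature. Positions come from an Ensembl dm6 annotation.

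Groups came from the sample titles and, for naive flies, the time label. The test was the quasi-likelihood one of edgeR 4.0.16 under R 4.3.3, run on the counts of all genes (TMM, filterByExpr, group means, robust, 2-sided), with Benjamini-Hochberg adjustment over all genes tested and calls at an adjusted p under 0.05. Strain pairs were fitted over all libraries of 1 time and training responses over all libraries of a strain, 19 comparisons in all. Printed levels use TMM over all 32 libraries, and log2 differences come from each fit. The p-values measure the spread between pools of flies. Floors of 3 counts cover counting error only. The code was tested on simulated data. No pair of replicates agreed within sampling noise (lowest chi-square per gene 6.94 over 36 pairs).

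The members, gene lists and markers were chosen with earlier results of these data known. The genes named are the Hsp70 genes and Octbeta3R, the nearest members of at least 10 CPM on each side of each cluster, and called members without overlap of libraries. The called members of smallest p after training and those of highest level per length are also named. Not every called contrast of a named gene is given. The others named (CG4115 in its overlapping pair, GstD1 against hsp70-4c, and CG3281, Ect3, CG4830 and the rest of the GstD genes) were picked after their values were seen. Alternatives were DESeq2 1.42.0 size factors and its Wald test, no filter, 1 fit over all libraries, a replicate block and leaving out each library. No sequence is shown.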

Additional observations from a re-analysis of the deposited data

How the results depend on the processing

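Without Hsp70Bc and Octbeta3R, 71 pairs of called member and comparison remained. Of these, 21 kept direction and call under every alternative, and 0 reversed. Leaving out single libraries ended the call for most of the rest. Whether this came from fits with fewer samples or from single libraries was not tested. DESeq2 size factors ended 2 calls, the DESeq2 Wald test 5, the unfiltered fit 9, the replicate block 18 and the fit over all 32 libraries 20, and the cause was not tested. Without the filter, the count in w+hsp70- at 5 h was 3 instead of 1. In 1 fit over all libraries, it was 10 instead of 5 for hsp70-4c at 5 h and 0 instead of 1 for w+hsp70- minus hsp70-1c at 5 h.

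Replicate numbers gave no clear sign of pairing, and samples were treated as unpaired. Correlations of same-numbered libraries ran from -0.384 to 0.304 and were over 0.1 for every pair in 0 of 19 comparisons. With 3 or 4 libraries per group, this cannot exclude a batch shared by replicate number. With replicate number as a block, the number of called members was 3 instead of 5 for naive w+hsp70- minus hsp70-1c and 5 instead of 3 for hsp70-4c at 24 h. At 5 h it was 0 instead of 1 for w+hsp70- minus hsp70-1c, 2 instead of 4 for w+hsp70- minus hsp70-4c and 0 instead of 1 for w+hsp70- minus hsp70-. The 2 that stayed called for w+hsp70- minus hsp70-4c were Hsp70Bc and Octbeta3R, which these counts include.

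Leaving out each library in turn, with Hsp70Bc and Octbeta3R counted, gave 5 to 9 called members for naive hsp70-4c minus hsp70-1c (10 in full), 5 to 9 for hsp70- minus hsp70-1c (8), 2 to 6 for w+hsp70- minus hsp70-1c (5), 11 to 18 for hsp70- minus hsp70-4c (16) and 4 to 8 for w+hsp70- minus hsp70-4c (9). Hsp70Bc and Octbeta3R kept their calls without each library in every strain contrast with hsp70-4c. In those contrasts, 2 calls of each count and range, here and at 5 h, were thus fixed. The lowest counts came without hsp70-1c replicate 1, hsp70- replicate 3, w+hsp70- replicate 2 or 3, hsp70- replicate 3 and w+hsp70- replicate 2. At 5 h the ranges were 3 to 5 for hsp70-4c minus hsp70-1c, 1 to 3 for hsp70- minus hsp70-1c, 0 to 2 for w+hsp70- minus hsp70-1c, 5 to 10 for hsp70- minus hsp70-4c, 2 to 4 for w+hsp70- minus hsp70-4c and 0 to 1 for w+hsp70- minus hsp70-. After training they were 2 to 4 for hsp70-1c, 1 to 3 for hsp70-4c and 0 to 1 for w+hsp70- at 5 h, and 0 to 3 for hsp70-4c at 24 h. Members under about 1 CPM were not tested, and differences there were not detectable at this depth.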
